A study of Homo sapiens with 4 samples.

Results

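Cullin-RING ubiquitin ligases are assembled from a cullin scaffold, a RING protein and exchangeable substrate receptors, and the genes of these scaffolds and receptors were followed here through m6A-seq libraries of X-ray-treated HEK293T cells, a transformed human embryonic kidney line. The genes were chosen by symbol alone, as FBXL, FBXO, FBXW, KLHL, KBTBD, BTBD, KCTD, CUL or DCAF followed by a number. A count in at least 1 library was listed for 153 of them, out of 14911 genes in all. The cells carried either a control short hairpin RNA (shCTL) or a hairpin against ALKBH5 (shA5), an m6A demethylase, and all of them had been exposed to X-rays. Polyadenylated RNA was fragmented and sequenced before (input) and after immunoprecipitation with an m6A antibody (m6A-IP), which gave 4 libraries with 1 library per group. No group had a replicate, so no test between groups was possible, and the labels did not say which hairpin or how many cell clones stood behind the shA5 libraries. Unirradiated cells were not analysed here, so a response to X-rays cannot be told apart in these values.

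F-box proteins (FBXL with leucine-rich repeats, FBXW with WD40 repeats, FBXO with other domains) bring substrates to CUL1 through the adaptor SKP1. Proteins with a BTB domain (KLHL, KBTBD, BTBD and many KCTD proteins) join adaptor and receptor in 1 chain and bind CUL3. DCAF proteins reach CUL4A or CUL4B through DDB1, and CUL5 works with elongins B and C and receptors of the SOCS-box kind. Attachment of NEDD8 switches the cullin on, CAND1 helps to exchange receptors, and the COP9 signalosome removes NEDD8. Ligases of these families destroy cyclins, checkpoint kinases and replication licensing factors, and so act in the cell cycle and in the DNA damage response. N6-methyladenosine (m6A) is found mainly in long internal exons and near stop codons of mRNA, at DRACH sequences (where R stands for a purine, D excludes C and H excludes G) of which GGACU is a preferred form.

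The deposited values were read counts per transcript, which were summed per gene and expressed as CPM, that is, relative to the library total. On this scale an effect common to all transcripts does not show. For shCTL the totals were 2237819 input and 3944402 m6A-IP counts, and for shA5 they were 1311390 and 3148119. The ligase genes took 0.741%, 0.902%, 0.724% and 0.947% of these counts. A gene was kept when it averaged at least 50 counts over the 4 libraries, which left 69 of the 153 ligase genes and 5320 of all genes. ALKBH5 itself had 486 input counts in shCTL and 145 in shA5, a log2 input change of -0.97 with a 95% counting interval of -1.25 to -0.70. Of the 6 HEK293T marker genes, NEFL (83 to 555 counts) and LHX1 (35 to 277 counts) were clearly counted, while VIM had 2 to 8 counts, NEFM 2 to 8, CDH2 5 to 23 and PAX2 at most 1. Of 7 colon epithelial genes CDX2 had 223 to 1488 counts, EPCAM and LGALS4 had at most 3 and the other 4 were at 0 in every library. PTPRC and HBB were also at 0, as was COL1A2, whereas COL1A1 had 150 to 578 counts.

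The 84 ligase genes below the minimum included most of the cullins. Counts are given from here on in the order input and m6A-IP of shCTL, then input and m6A-IP of shA5. CUL1, the scaffold of the F-box ligases, had 2, 6, 0 and 5 counts. CUL2 had 2 to 8 counts, CUL7 7 to 23, CUL9 5 to 11 and CUL4B 19 to 42 counts per library. CUL3, the scaffold for all BTB receptors, lay closer to the minimum, with 57, 59, 26 and 36 counts. FBXW7, the receptor for cyclin E and Notch, had 45, 71, 20 and 49 counts. Of the 84 genes, 49 averaged under 10 counts and 21 had no more than 3 counts in any library. Just above the minimum stood FBXL7 with a mean of 50.8 counts, and just below it DCAF4L1 with 47.8 and KCTD9 with 46.5.

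The share of genes kept went with the number of annotated transcripts. CUL1 has 12 annotated coding transcripts in Gencode release 44, and CUL2 has 23. Of the ligase genes with 1 coding transcript 12 of 24 were kept (50%), of those with 2 to 3 transcripts 31 of 55 (56.4%), of those with 4 to 6 transcripts 18 of 49 (36.7%) and of those with 7 or more 8 of 24 (33.3%). Over all coding genes listed, the same shares were 50.8%, 38.6%, 31.3% and 26.9%. In 61 of the 69 kept genes a single transcript held at least 90% of the gene's counts, and the rule by which the authors assigned reads shared between transcripts is not given in the sources used here. Levels compared between genes carry this doubt, and most values below are therefore ratios between libraries. Whether the rule affected input and m6A-IP counts alike is not known, so enrichment may carry the doubt as well. The part of the assignment rule in the low counts was not tested.

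The GGACT sequences nearest to the stop codon are printed here for the genes with the highest and lowest m6A enrichment in shCTL, so that the 2 ends of the range can be compared by eye. Each line is the DNA form of the transcript strand, 5′ to 3′, taken from the Gencode release 44 transcript with the most counts and matched to hg38, with every GGACT in capitals and 8 bases on either side of the site. The 6 genes of highest enrichment, in falling order, read as follows.
KBTBD8: aaataaatGGACTcgtaagaa
KCTD11: gagagtcgGGACTctcctgca
FBXL14: tcaacctgGGACTctggcaga
FBXO46: gagggtccGGACTgggccgcc
FBXL19: cctcccccGGACTcgacagga
KCTD1: gagcctctGGACTaaatggac
Of the 6 genes of lowest enrichment, BTBD1 had no GGACT anywhere in its transcript, and the other 5 read as follows.
CUL5: gtttatttGGACTttgattac
DCAF12: cagctttgGGACTagtctgta
KLHL23: tattaagtGGACTgctcatga
DCAF7: tgagagatGGACTgatGGACT
FBXL20: tgaccatgGGACTgaagtttg

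The positions are given from the A of GGACT to the first base of the stop codon. In KCTD1 the site ran into the stop codon itself (chr18:26455737-26455757, minus strand, exon 5), and in FBXL19 it lay 28 bases beyond the stop codon's first base in the 3′ UTR (chr16:30947246-30947266, plus strand, exon 11). The FBXO46 site was 74 bases beyond it in the 3′ UTR (chr19:45711602-45711622, minus strand, exon 2), and the KCTD11 site 103 bases beyond it in the single exon of that gene (chr17:7353732-7353752, plus strand). The FBXL14 site was in the coding sequence of exon 1 at position -88 (chr12:1592890-1592910, minus strand), and the KBTBD8 site in the coding sequence of exon 4 at position -276 (chr3:67008097-67008117, plus strand). At the low end, the CUL5 site lay 94 bases beyond the stop codon's first base in the 3′ UTR (chr11:108104466-108104486, plus strand, exon 19), and that of FBXL20 lay 203 bases beyond it (chr17:39261249-39261269, minus strand, exon 15). The DCAF12 site was 577 bases beyond it (chr9:34087765-34087785, minus strand, exon 9) and the DCAF7 site 1157 bases beyond it (chr17:63590317-63590337, plus strand, exon 7), both in the 3′ UTR. KLHL23 had 1 GGACT, in the coding sequence of exon 2 at position -1053 (chr2:169735626-169735646, plus strand). The distances of the high and the low genes overlapped, since the CUL5 site lay nearer to the stop codon than that of KCTD11, and the FBXL20 site nearer than that of KBTBD8. GGACT on the transcript strand was present in 67 of the 68 ligase genes with an annotated transcript (98.5%), against 93.3% of 5292 genes, so its presence alone did not separate the members.

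m6A enrichment was taken as the log2 ratio of m6A-IP to input CPM, with 0.5 CPM added to both. In shCTL cells, 27 of the 69 ligase genes (39.1%) were enriched at least 1.5-fold, against 22.5% of all genes kept, and 13 (18.8%) were depleted by as much, against 30.3%. In shA5 cells 31 (44.9%) were enriched, against 24.3% of all genes, and 9 (13%) were depleted, against 31.7%. The median log2 enrichment of the ligase genes was 0.43 (95% interval of the median -0.09 to 0.66) in shCTL and 0.50 (0.11 to 0.78) in shA5, whereas over all genes it was -0.11 and -0.10. Each of these 1.5-fold calls had a 95% counting interval that left out 0. The intervals cover counting error only, and they take reads as independent. Reads copied from the same molecule would make them too narrow. The sources used here do not mention molecular identifiers. The minimum over all 4 libraries lets in genes through their deeper m6A-IP. With a minimum of 50 counts in the shCTL input instead, chosen after the data were seen, 21 of 66 ligase genes (31.8%) were enriched in shCTL against 18.4% of all genes, and 24 (36.4%) in shA5 against 20.5%. Under that minimum 18 (27.3%) were depleted in shCTL against 37.1% of all genes, and 14 (21.2%) in shA5 against 37.6%. The 8 kept genes with under 50 counts in the shCTL input were FBXL17, FBXL7, FBXO2, FBXO38, KBTBD8, KCTD19, KCTD21 and KCTD8, and 6 of them were enriched in shCTL and 7 in shA5.

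**Figure D1:**
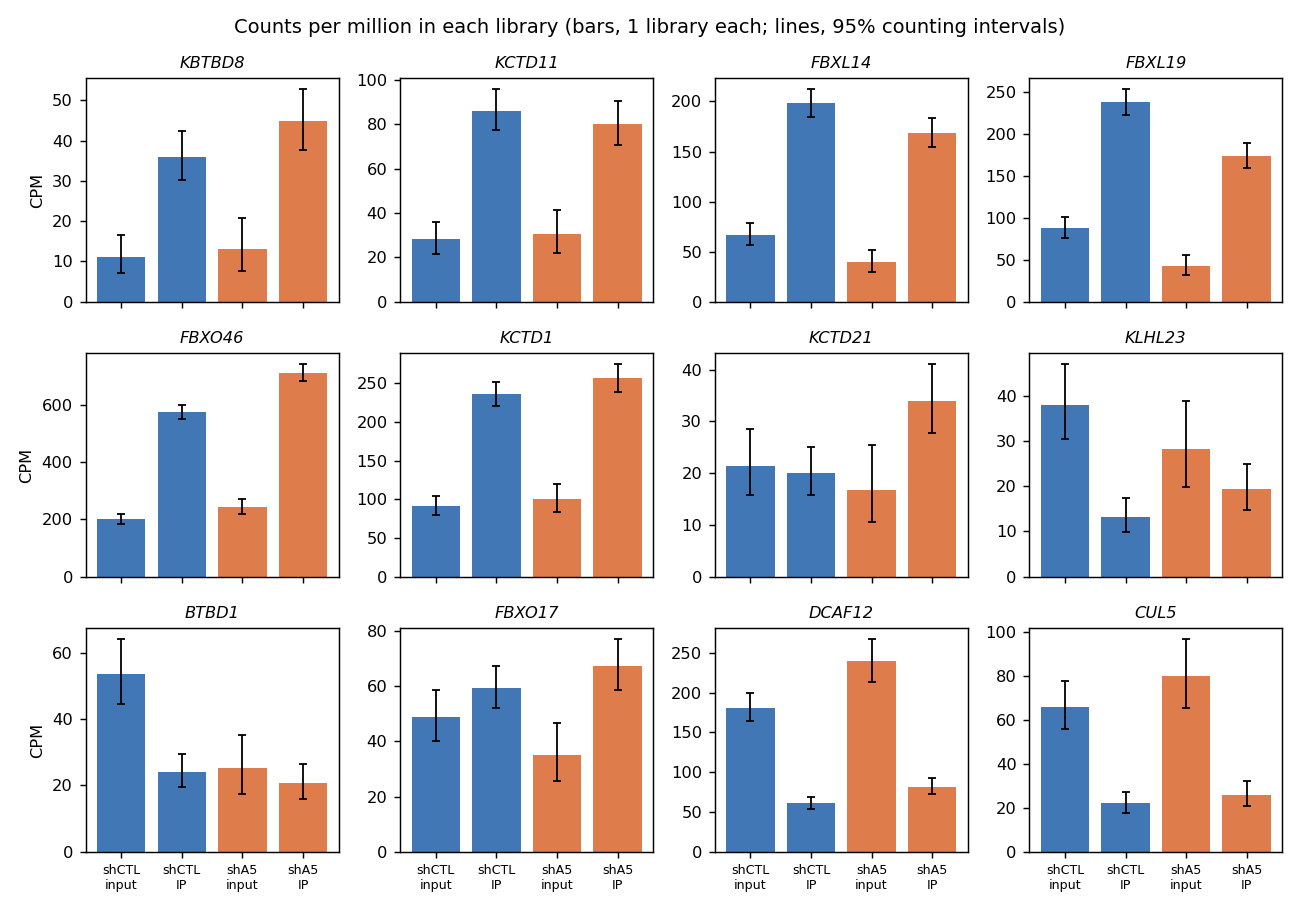
CPM (vertical axis, starting at 0) of 12 ligase genes, with the input and m6A-IP of shCTL (blue) and of shA5 (orange); each bar is 1 library and the lines are 95% Poisson counting intervals. KBTBD8 to KCTD1 stand higher in both m6A-IP libraries than in either input, DCAF12 and CUL5 stand lower, and KCTD21, KLHL23, BTBD1 and FBXO17 differ between shCTL and shA5 in their ratio.

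The highest values belonged to BTB and F-box receptors. KBTBD8, a CUL3 receptor known from neural crest specification, had 25, 142, 17 and 141 counts, which gave a log2 enrichment of 1.64 (95% counting interval 1.07 to 2.36) in shCTL and 1.75 (1.06 to 2.61) in shA5. KCTD11, an inhibitor of Hedgehog signalling, had 63, 340, 40 and 252 counts and enrichments of 1.60 and 1.38. A lncRNA gene on the other strand overlaps 13.6% of the KCTD11 transcript. In KBTBD8 and KCTD11 both m6A-IP libraries stood above both inputs in CPM. KCTD1, a nuclear BTB protein that represses AP-2 factors, had 204, 931, 132 and 807 counts and enrichments of 1.37 and 1.34. FBXO46 was the best counted of the high genes, with 449, 2268, 320 and 2244 counts, and its enrichment was 1.52 (1.37 to 1.67) in shCTL and 1.54 (1.38 to 1.72) in shA5. In these 4 genes the change of enrichment between the 2 populations ran from -0.22 to 0.11, and each counting interval held 0.

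Among the leucine-rich F-box genes, 4 of 8 (50%) were enriched in shCTL (FBXL14, FBXL17, FBXL19 and FBXL8), against 22.5% of all genes. In shA5 5 of 8 (62.5%) were enriched, against 24.3%. FBXL17 passed the minimum through its m6A-IP libraries. With 50 counts required in the shCTL input 3 of 6 were enriched in shCTL and 4 of 6 in shA5, against 18.4% and 20.5% of all genes. Exons of another coding gene on the same strand overlap 38.3% of the FBXL8 transcript, so its value may hold reads of both genes. FBXL14, which directs degradation of SNAIL-type transcription factors, had 149, 781, 52 and 531 counts and enrichments of 1.57 and 2.07. FBXL19, a CpG island-binding protein, had 197, 936, 56 and 545 counts and enrichments of 1.43 and 2.01. FBXL20 was the exception in this subfamily, with 114, 83, 71 and 77 counts and enrichments of -1.26 and -1.13.

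The FBXO genes spread over both sides, with 6 of 16 enriched and 2 of 16 depleted in shCTL, and 8 of 16 enriched and the same 2 genes, FBXO28 and FBXO3, depleted in shA5. Over all genes kept, 22.5% were enriched and 30.3% depleted in shCTL, and 24.3% and 31.7% in shA5. FBXO2 and FBXO38 passed the minimum through their m6A-IP. Under the shCTL input minimum 4 of 15 FBXO genes (26.7%) were enriched in shCTL and 6 of 15 (40%) in shA5, against 18.4% and 20.5% of all genes. FBXO31, a checkpoint receptor that directs cyclin D1 to degradation after DNA damage, had 352, 1487, 234 and 1285 counts and enrichments of 1.26 (1.09 to 1.43) and 1.19 (0.99 to 1.40). FBXO10, also enriched in shCTL, shares 61.2% of its transcript with exons of another coding gene on the same strand. FBXO38 had only 31 and 21 input counts, with enrichments of 1.11 and 1.09 and intervals from 0.43 to 1.86. FBXO5, the APC/C inhibitor EMI1, had 53, 128, 23 and 100 counts, and its enrichment was 0.45 (-0.02 to 0.94) in shCTL and 0.84 (0.19 to 1.58) in shA5. FBXO11, a receptor for BCL6, had 76, 95, 52 and 90 counts and enrichments of -0.49 and -0.47, but 34.5% of its transcript overlaps exons of MSH6 on the other strand. Whether counting used strand is not given in the sources used here, so reads of the 2 genes cannot be told apart. Of the 3 FBXW genes none was enriched 1.5-fold, and FBXW9 was depleted in both populations, at -0.90 and -1.36.

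**Figure D2:**
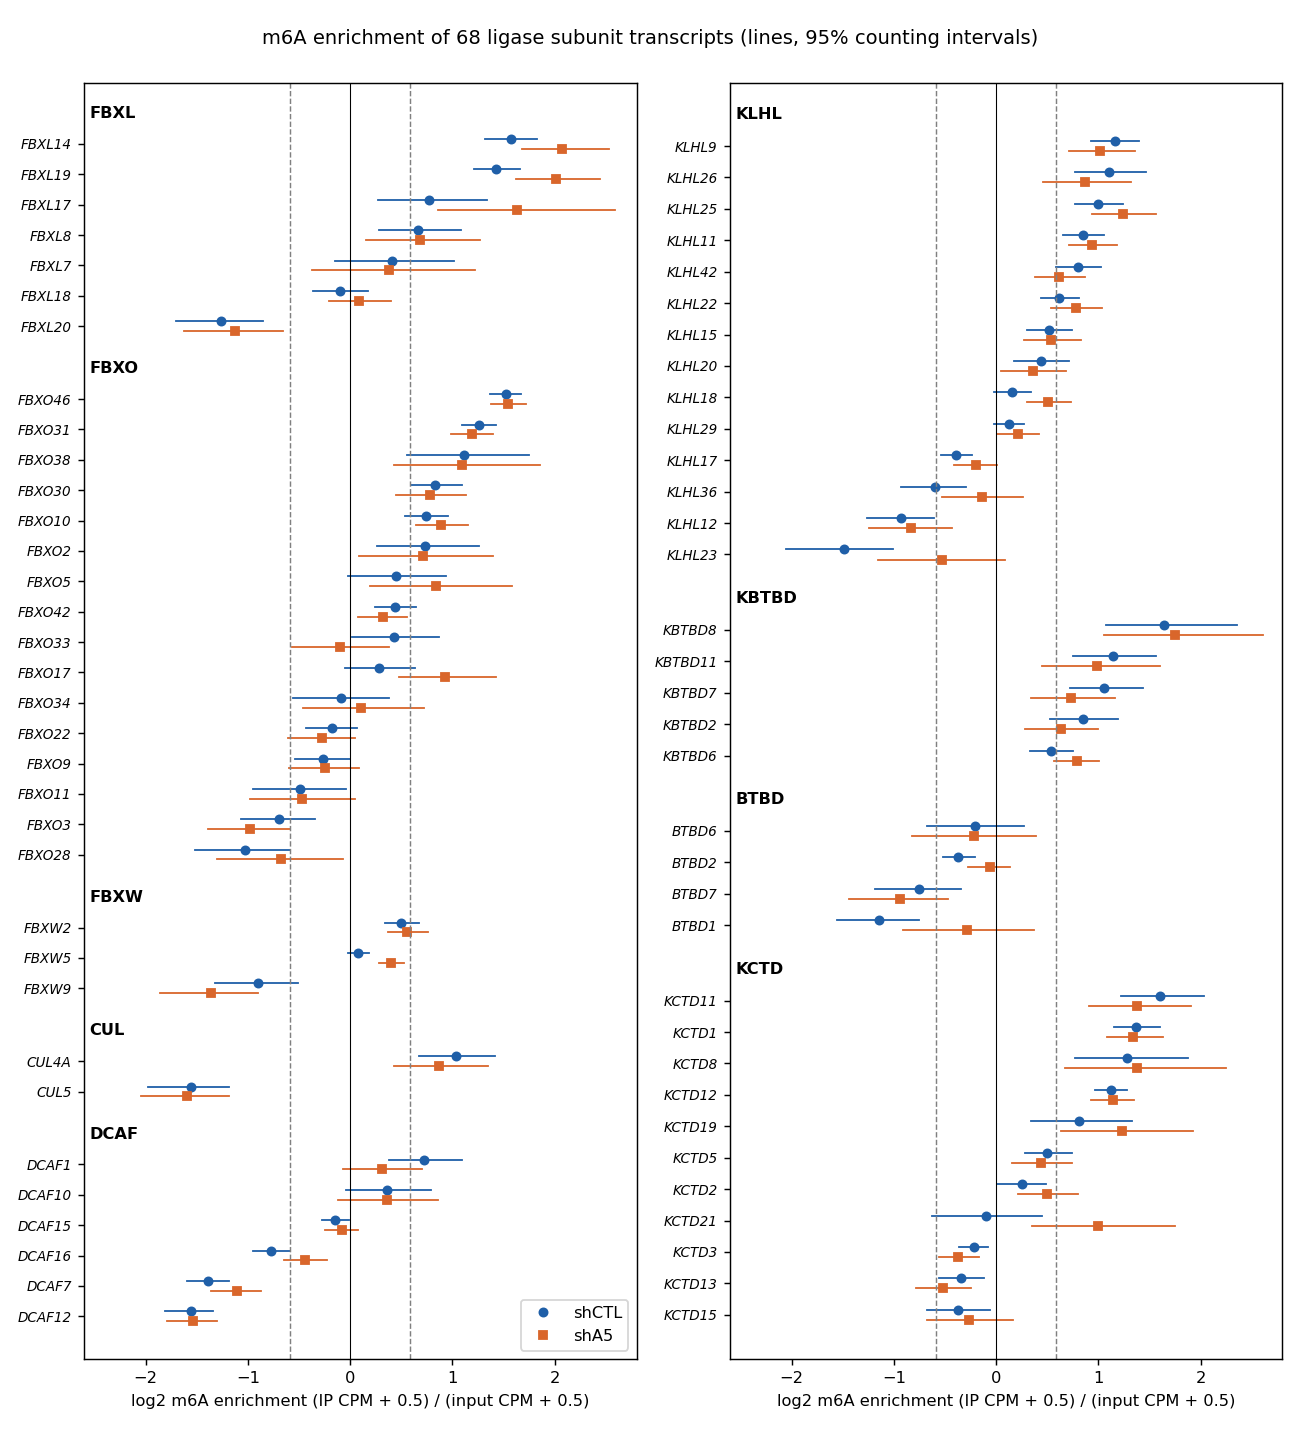
log2 m6A enrichment (horizontal axis) of 68 of the 69 ligase genes kept, grouped by subfamily and ordered by the shCTL value, with 1 library pair per point; circles are shCTL, squares are shA5, lines are 95% counting intervals and dashed lines mark 1.5-fold. All 5 KBTBD genes lie to the right of 0 and all 4 BTBD genes to the left in both populations, and KCTD21, KLHL23 and BTBD1 show the widest distance between circle and square.

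The CUL3 receptors of the KLHL, KBTBD and KCTD groups were mostly enriched or near 0. Of the 14 KLHL genes, 6 (42.9%) were enriched in both populations (KLHL9, KLHL11, KLHL22, KLHL25, KLHL26 and KLHL42). Of all genes 22.5% were enriched in shCTL and 24.3% in shA5. Depleted were 3 KLHL genes (21.4%) in shCTL and 1 (7.14%) in shA5, against 30.3% and 31.7% of all genes. A lncRNA gene on the same strand overlaps 39.6% of the KLHL11 transcript. KLHL9, which with KLHL13 forms the CUL3 ligase that removes Aurora B from mitotic chromosomes, had 190, 749, 96 and 470 counts and enrichments of 1.16 and 1.02. KLHL22, a receptor for PLK1, had 317, 861, 167 and 690 counts and enrichments of 0.62 and 0.78. KLHL15, which directs the end-resection factor CtIP to degradation, stood just under 1.5-fold at 0.52 and 0.54, and KLHL20 at 0.44 and 0.36. KLHL12, the receptor that monoubiquitinates SEC31 of the COPII coat, had 168, 155, 91 and 122 counts and was depleted in both, at -0.93 and -0.83.

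All 5 KBTBD genes had more m6A-IP than input CPM in both populations, and 4 of the 5 passed 1.5-fold in shCTL. Without KBTBD8, which the shCTL input minimum leaves out, it was 3 of 4. The shares of all genes enriched in shCTL were 22.5% with the first minimum and 18.4% with the shCTL input minimum. KBTBD6 and KBTBD7, partners in a CUL3 ligase for TIAM1, had enrichments of 0.54 and 1.06 in shCTL and of 0.79 and 0.73 in shA5. These 2 intronless neighbours share 779 stretches of 25 bases (19.7% of such stretches of KBTBD6 and 16.7% of those of KBTBD7 also occur in another gene), and how reads from such stretches were counted is not given, so their separate values are uncertain. Of the 11 KCTD genes, 5 (45.5%) were enriched in shCTL and 6 (54.5%) in shA5, against 22.5% and 24.3% of all genes. None was depleted in either, against 30.3% and 31.7%. KCTD8, KCTD19 and KCTD21 passed the minimum through their m6A-IP libraries. With 50 counts required in the shCTL input 3 of 10 (30%) were enriched in each population, against 18.4% of all genes in shCTL and 20.5% in shA5. KCTD12 and KCTD8, auxiliary subunits of GABA-B receptors and not known as ligase receptors, were at 1.12 and 1.28 in shCTL. KCTD5, a CUL3 receptor for G-protein beta-gamma subunits, was at 0.50 and 0.44, and KCTD13, which directs RhoA to CUL3, at -0.34 and -0.52. The 4 BTBD genes were all below 0, from -1.14 to -0.21 in shCTL.

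The 2 cullins kept stood on opposite sides of 0, and 4 of the 6 DCAF genes were below 0 in both populations. CUL5 and DCAF12 shared the lowest value in shCTL. CUL5 had 148, 87, 105 and 82 counts, and enrichments of -1.56 (-1.98 to -1.19) and -1.60 (-2.05 to -1.19). CUL4A was on the enriched side, with 78, 282, 51 and 225 counts and enrichments of 1.03 and 0.87, but 97.2% of its counts lay on a 1111-base transcript with 522 coding bases that is not its canonical one. DCAF12, the receptor for C-terminal glutamate degrons, had 406, 241, 314 and 258 counts and enrichments of -1.56 (-1.81 to -1.34) and -1.54 (-1.79 to -1.30). DCAF7, a WD40 scaffold of the DYRK1A kinase, had 484, 324, 269 and 298 counts and enrichments of -1.39 and -1.11. Exons of another coding gene on the same strand overlap 18.5% of the DCAF7 transcript. DCAF15, the receptor recruited by aryl sulfonamides such as indisulam, was among the best counted members with 701, 1116, 432 and 979 counts, and its enrichment was close to 0, at -0.15 and -0.08. DCAF1, the receptor seized by the lentiviral protein Vpr, was at 0.72 in shCTL and 0.31 in shA5, a change of -0.42 (-0.95 to 0.11). It was the 1 ligase gene past 1.5-fold in shCTL alone, whereas of all 5320 genes 1197 were enriched in shCTL and 996 in both. Of the 6 DCAF genes 1 was enriched (16.7%, against 22.5% of all genes) and 3 were depleted (50%, against 30.3%) in shCTL. In shA5 0 were enriched, against 24.3% of all genes, and 2 were depleted (33.3%, against 31.7%). The subfamily medians in shCTL ran from 1.06 for KBTBD over 0.54 for FBXL, 0.50 for KCTD, 0.48 for KLHL, 0.43 for FBXO and 0.08 for FBXW to -0.46 for DCAF and -0.56 for BTBD. Neighbours in this order from FBXL to FBXO differed by far less than the spread of genes within each subfamily (SD 0.72 to 0.89). The order depended on the minimum, since with 50 counts required in the shCTL input the median was 0.96 for KBTBD, 0.54 for FBXL, 0.44 for KLHL and 0.28 for FBXO, while KCTD fell to 0.02, below FBXW at 0.08.

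The structure of the transcripts was set beside that of all genes kept. The transcript with the most counts had a median of 6 exons in the 68 ligase genes with annotation, against 9 in 5292 genes, and a median of 1.2 exon junctions per kb against 2.37. Its median length was 4376 bases against 3590, and its longest exon 2848 bases against 1894. DRACH density was alike, with 18 per kb against 18.3, and GC content was 47.9% against 51.4%. The KBTBD genes stood at the low end of junction density, with a median of 0.145 per kb, and the KLHL genes had 0.642, whereas the FBXW genes had 3.39.

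Across the ligase genes, enrichment in shCTL went down with the number of exons (Spearman's rho -0.47 over 68 genes, and -0.26 over 5292 genes) and with junction density (-0.37 and -0.29). For GC content rho was 0.15 and 0.36, and for DRACH density -0.05 and -0.15. The differences between these coefficients were not tested. With the density of GGACT rho was 0.23, against 0.17 over all genes. These are correlations across genes of the same 2 libraries, and genes are not independent replicates. The median exon number of ligase genes was lower than that of all genes, so enrichment was also set out by exon number, in classes chosen after the data were seen. Of the 5 single-exon members (KBTBD6, KBTBD7, KCTD11, KCTD12 and KLHL9) 4 were enriched in shCTL, against 74.3% of 226 single-exon genes. With 2 to 3 exons 10 of 14 members (71.4%) were enriched, against 45.9% of all genes, and their median was 0.84 against 0.51. With 4 to 6 exons the share was 27.8% against 21%, with 7 to 10 exons 18.8% against 16.7%, and with 11 or more 26.7% against 12.9%. The classes of 7 to 10 and of 11 or more exons held 3 and 4 enriched members, among them FBXO38 and KCTD19, which passed the minimum through their m6A-IP libraries. With 50 counts required in the shCTL input, the shares from 1 exon upward were 80% against 70.9%, 69.2% against 40.7%, 20% against 16.9%, 11.8% against 13.2% and 13.3% against 10.5%. In the classes of 7 or more exons the members' share was then near that of all genes. In the class of 4 to 6 exons it was near it in shCTL only, since 6 of 15 members (40%) were enriched in shA5 against 18.6%, and the members' median in shCTL was 0.42 against -0.30. With the GC trend of all genes removed, 31 of 68 members were enriched in shCTL (45.6%, against 20.9% of all genes). In single genes that correction moved FBXL19 from 1.43 to 0.77, KLHL15 to 1.05 and KLHL20 to 0.83, and took KLHL22 to 0.37 and FBXO3 to -0.31, inside 1.5-fold.

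**Figure D3:**
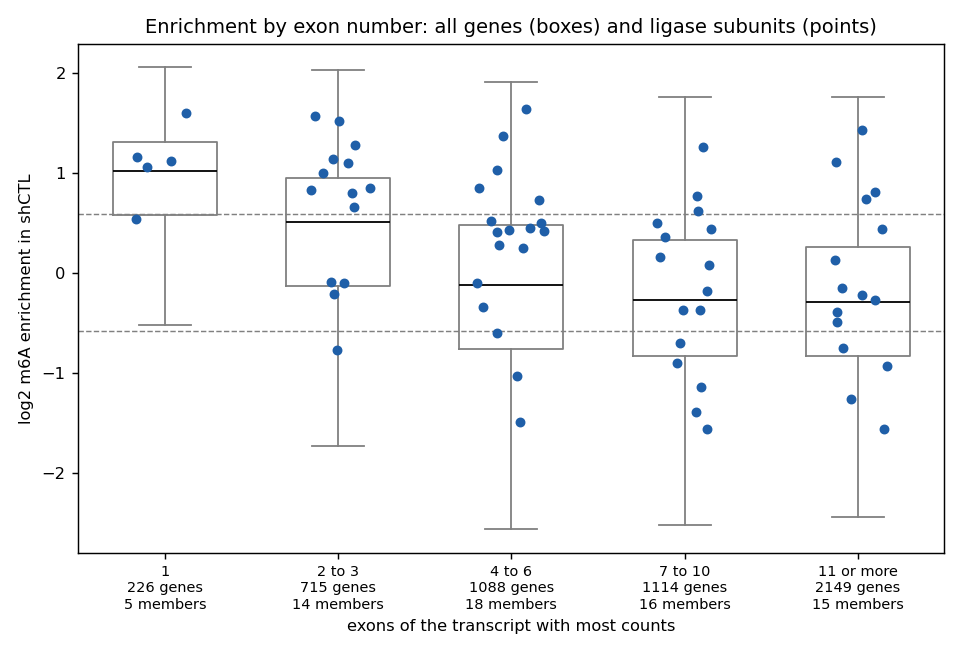
log2 m6A enrichment in shCTL (vertical axis) by the number of exons of the transcript with the most counts (horizontal axis); boxes are the quartiles and median of all genes kept, whiskers reach the last value within 1.5 box lengths, points are the 68 ligase genes and dashed lines mark 1.5-fold. The median falls from 1.02 with 1 exon to -0.29 with 11 or more exons over all genes, and from 1.12 to -0.22 over ligase genes.

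Enrichment was then compared between the 2 cell populations, to ask whether transcripts of ligase subunits carried more m6A-IP signal where ALKBH5 was reduced. The change of log2 enrichment, shA5 minus shCTL, had a median of 0.03 over the 69 ligase genes and 0.00 over all genes. A change of at least 1.5-fold upward was seen in 5 members (7.25%), against 5.38% of all genes, and in no member downward, against 5.09%. These counts depended on the depth and on the minimum. Thinned to the smallest library total 9 members (13%) were higher and 2 (2.9%) lower, against 7.67% and 7.82% of all genes. With a minimum mean of 10 counts 11 of 104 (10.6%) were higher and 5 (4.81%) lower, against 12.6% and 13%. With a mean of 200 none of 35 passed in either direction, against 1.65% and 1.08%. Requiring 50 counts in the shCTL input left out KCTD21 and FBXL17. Then 4 of 66 (6.06%) were higher, near the 6.14% of all genes, and 0 were lower, against 4.76%. Of the 69 genes 26 were enriched in both populations and 9 were depleted in both, and the sign was the same for 65, whereas of all 5320 genes 996 were enriched in both, 1400 were depleted in both and 4789 had the same sign. Of the 5 members with the higher enrichment, the counting interval of the change left out 0 for 4, namely KCTD21, KLHL23, BTBD1 and FBXO17. FBXL17, the quality-control receptor for BTB dimers, was the fifth, with 41, 125, 14 and 107 counts and a change of 0.85 (-0.12 to 1.95).

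KCTD21, a BTB protein related to KCTD11, had 48, 79, 22 and 107 counts. Its enrichment was -0.10 in shCTL and 1.0 in shA5, a change of 1.09 (0.23 to 2.03). Its m6A-IP CPM was higher in shA5 by 0.75 on the log2 scale (0.33 to 1.20), and its input change was -0.35 (-1.15 to 0.40). Exons of KCTD21-AS1 on the other strand overlap 34.9% of its transcript, and without a stated strand the reads of the 2 genes cannot be told apart. KLHL23 had 85, 52, 37 and 61 counts, enrichments of -1.49 and -0.53 and a change of 0.96 (0.16 to 1.81). FBXO17 had 109, 234, 46 and 212 counts, enrichments of 0.28 and 0.93 and a change of 0.65 (0.07 to 1.26), and 18.6% of its transcript overlaps another coding gene on the same strand. In these 3 genes the m6A-IP values lay above 0 and the input values below 0, but only the m6A-IP interval of KCTD21 left out 0. KLHL23 had an m6A-IP change of 0.54 (-0.00 to 1.12) and an input change of -0.42 (-1.03 to 0.14), and FBXO17 had 0.18 (-0.09 to 0.46) and -0.47 (-1.0 to 0.04), so neither library alone showed a shift beyond counting error in these genes.

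BTBD1 differed mainly in its input. It had 120, 95, 33 and 65 counts, so that its input CPM went from 53.6 to 25.2, a log2 change of -1.08 (-1.69 to -0.53), while its m6A-IP change was -0.22 (-0.70 to 0.25). Its change of enrichment of 0.86 (0.11 to 1.64) rests on the same 33 reads of the shA5 input. FBXL19 was alike, with input CPM of 88.0 and 42.7, an input change of -1.04 (-1.50 to -0.61), an m6A-IP change of -0.45 (-0.61 to -0.30) and a change of enrichment of 0.58 (0.12 to 1.07), just under 1.5-fold. FBXL14 had input CPM of 66.6 and 39.7, an input change of -0.74 (-1.23 to -0.28), an m6A-IP change of -0.23 (-0.39 to -0.07) and a change of enrichment of 0.51 (0.02 to 1.03). In these 3 genes the m6A-IP value was also lower in shA5, but by less than the input. The shA5 input is the shallowest of the 4 libraries, and it enters both quantities.

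**Figure D4:**
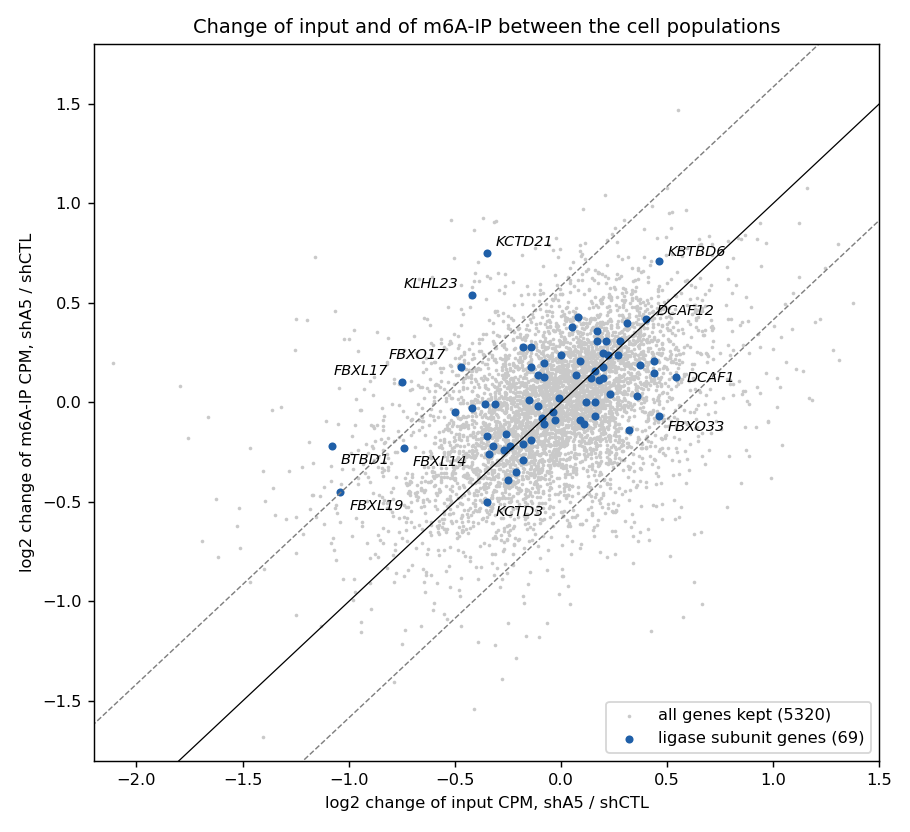
log2 change of m6A-IP CPM (vertical axis) against log2 change of input CPM (horizontal axis), shA5 over shCTL, for the 69 ligase genes and all 5320 genes kept; on the solid line the enrichment is equal in both populations, and the dashed lines mark a change of enrichment of 1.5-fold. KCTD21 and KLHL23 lie above the upper dashed line with a higher m6A-IP and a lower input together, BTBD1 lies above it with a lower input, and no ligase gene lies below the lower line.

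The intervals of the change left out 0 on the upper side for 11 of the 69 genes (15.9%), against 8.18% of all genes, and on the lower side for none, against 8.06%. Beside genes described above these included BTBD2, DCAF16, FBXW5 and KLHL18, with changes from 0.30 to 0.35. FBXW5 had the narrowest interval of all, with 1316, 2455, 698 and 2216 counts and a change of 0.32 (0.16 to 0.48). The lowest values were -0.53 (-1.18 to 0.11) in FBXO33, -0.46 in FBXW9, -0.42 in DCAF1, -0.33 in KBTBD7 and -0.29 in FBXO3, and the interval of each held 0. The half-width of the interval had a median of 0.495 and was wider than 1.5-fold in 26 of the 69 genes. A change just at 1.5-fold was not detectable in those genes at this depth. KCTD21, KLHL23, BTBD1, FBXO17 and FBXL17, the members with a change of at least 1.5-fold, were all among these 26. Each of their changes therefore came from a gene with a wide interval.

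The input libraries gave the RNA level of the same genes, in bulk RNA where fewer cells that express a gene and less RNA per cell cannot be told apart. No ligase gene had a higher input in shA5 by at least 1.5-fold, against 3.44% of all genes, and 4 (5.8%) had a lower one, against 6.43%. The median input change was -0.03 over ligase genes and -0.02 over all genes. The 4 lower genes were BTBD1, FBXL19, FBXL14 and FBXL17, and the interval left out 0 in the first 3. FBXL17 was at -0.75 (-1.77 to 0.13). Of the 8 FBXL genes 6 had a lower input in shA5, and the subfamily median was -0.38, whereas 2793 of all 5320 genes had a lower input.

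The highest input changes stayed under 1.5-fold. DCAF1 had 91 and 78 input counts, a change of 0.54 (0.09 to 1.0). FBXO33 was at 0.46 (-0.07 to 1.0), KBTBD6 at 0.46 (0.20 to 0.72), FBXO3 at 0.44 (0.04 to 0.84) and KBTBD2, the receptor for the PI3K subunit p85-alpha, at 0.44 (0.01 to 0.87). KBTBD6 was higher in both kinds of library, with 269 and 217 input counts and 689 and 899 m6A-IP counts, and its m6A-IP change was 0.71 (0.56 to 0.85). DCAF12 was also higher in both, by 0.40 in the input and 0.42 in the m6A-IP, with a change of enrichment of 0.02 (-0.32 to 0.36). Intervals of the input change left out 0 on the upper side for 8 ligase genes (11.6%), against 12.9% of all genes, and on the lower side for 10 (14.5%), against 15.6%. With 1 library per population, a difference of this kind cannot be told apart from a difference between cultures or libraries.

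Levels were compared between genes per length, as counts per kb of annotated transcript scaled to the same sum over all genes in each library. The unknown assignment of reads shared between transcripts bears on this order, since it can lower the level of 1 gene more than that of another. In the shCTL input FBXW5 was highest at 668, followed by DCAF15 at 372, BTBD2 at 280, KCTD3 at 215 and KLHL17 at 203. The median of the 68 members was 45.1, against 59.6 over all genes kept. KBTBD8, the gene of highest enrichment, was lowest at 6.4, below FBXO38 at 8.44 and FBXL17 at 9.45. KBTBD8 passed the minimum with 25 and 17 input counts through its m6A-IP libraries.

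Genes that work with these subunits were set beside them. Of 36 partner genes (adaptors, RING and NEDD8 enzymes, COP9 and exchange factors) 15 were kept, and of these none was enriched 1.5-fold in either population, against 22.5% and 24.3% of all genes, and 6 (40%) were depleted in each, against 30.3% and 31.7%. The median enrichment of the partners in shCTL was -0.11. CDC34, the E2 enzyme of SCF ligases, was highest at 0.45 and DDA1, a DDB1-bound subunit, was next at 0.37, whereas ARIH2, the RING-between-RING partner of CUL5, was at -1.90 and DDB1, with 4557 input counts in shCTL, at -1.25 (-1.32 to -1.19). DCUN1D5, a NEDD8 ligase subunit, was also at -1.25. NEDD8 was the 1 partner with a lower input by 1.5-fold, at 184 and 60 counts and a change of -0.84 (-1.29 to -0.42). SKP1 (39, 22, 48 and 16 counts) and RBX1 (62, 41, 33 and 38 counts) fell below the minimum.

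Of 30 known substrates of these ligases 18 were kept, with 3 enriched (16.7%, against 22.5% of all genes) and 7 depleted (38.9%, against 30.3%) in shCTL. JUN, a substrate of FBXW7, was enriched at 1.26 (1.21 to 1.32) from 3095 input counts, and WEE1, the CDK1-inhibiting kinase that SCF ligases destroy, at 1.06. CDC25A and IREB2 were lowest, at -1.82 and -1.71. RRM2, the ribonucleotide reductase subunit removed by cyclin F, had 54, 123, 29 and 169 counts and a change of enrichment of 0.90 (0.14 to 1.70). CCNE1, the FBXW7 substrate cyclin E1, had 65 and 17 input counts, an input change of -1.13 (-2.03 to -0.38) and a change of enrichment of 0.66 (-0.28 to 1.69). Of 32 genes of the same families under other symbols 13 were kept, with 1 enriched in shCTL (CCNF, cyclin F itself, at 0.61) and 3 depleted, which are 7.69% and 23.1% against the same 22.5% and 30.3% of all genes. In shA5 2 genes of this list were enriched (15.4%, against 24.3% of all genes) and 5 were depleted (38.5%, against 31.7%). RHOBTB3 of this list had 118, 105, 66 and 38 counts, and its change of enrichment was -1.04 (-1.81 to -0.35). It was the 1 gene of the list with a change past 1.5-fold downward, and 0 were past it upward.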

How the data were processed

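The deposited files hold read counts per transcript, 1 file per library. Per the labels and methods the authors isolated polyadenylated RNA, fragmented it, immunoprecipitated m6A and processed reads with bcl2fastq 2.0, fastp 0.23.2, HISAT2 and SAMtools 1.9 on hg38 (MACS2 is also named). The study's methods name StringTie for gene quantification. Whether it wrote these whole-number transcript counts, its version, the annotation release, the strand setting and the handling of shared reads are not given in the sources used here. Counts were summed per gene and divided by library totals. Enrichment and changes were computed on log2(CPM + 0.5) for genes averaging at least 50 counts. A call was a 1.5-fold difference, with exact 95% counting intervals (binomial for ratios, conditional odds ratio for changes of enrichment), computed without the added 0.5. Since no group had replicates, no p-value was computed. Transcript features came from Gencode release 44, matched by transcript ID (98.1% of listed transcripts).

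Members and gene lists were chosen with earlier results of these data known. Named were 26 genes set by role and every cullin (where kept), the 6 highest and lowest by enrichment in shCTL, the 5 highest and lowest by each change, and in each gene list the 2 highest and lowest. Other genes were named after their values were seen, and 1 item is not reported here. Python 3.11.15, scipy 1.17.1, R 4.3.3, edgeR 4.0.16 and DESeq2 1.42.0 (size factors only) were used. Scripts were tested on simulated data. Alternatives were other scalings, added constants, minimums, gene sets, thresholds, thinning, a GC trend and 1 transcript per gene. A depth of 3 counts was 0.761 to 2.29 CPM.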

Additional observations from a re-analysis of the deposited data

Results flagged for a closer look

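For 4 ligase genes the ratio of m6A-IP to input differed between shCTL and shA5 cells by at least 1.5-fold, with a counting interval of the difference that left out 0. The log2 change of enrichment was 1.09 for KCTD21, 0.96 for KLHL23, 0.86 for BTBD1 and 0.65 for FBXO17. All 4 were higher in shA5, each from 1 library pair per population, and the difference between cell populations was not tested because there are no replicates. The intervals cover counting error alone. The genes have 22 to 46 counts in the shA5 input, the shallowest library. All 4 are among the 26 members whose interval half-width was wider than 1.5-fold. KCTD21, with 48 input counts in shCTL, passed the minimum through its m6A-IP libraries. Exons of other genes overlap 34.9% of the KCTD21 transcript, 18.6% of that of FBXO17 and 2.76% of that of BTBD1. Of the 4 genes only KLHL23 shares no exon with another gene.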

How the results depend on the processing

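No paired analysis was possible because the design holds a single library of each kind. The counts of members kept within 1.5 times their value, and the medians within their interval, under TMM and DESeq2 scaling, added constants of 0.1 and 2 CPM, symbols with family name and number alone, the transcript with most counts and the GC trend removed. The share of all genes stands in brackets after each count or pair of counts. With a minimum mean of 10 counts (104 members), 30 were depleted in shCTL and 30 in shA5 (35.8% and 37.8%), 11 had higher and 5 lower enrichment in shA5 (12.6% and 13%), and 5 had higher and 12 lower input (9.32% and 12.5%). With a mean of 200 (35 members), 14 and 16 were enriched (29.1% and 31%) and 3 and 2 depleted (21.7% and 23.7%) in shCTL and shA5, 0 had higher enrichment (1.65%) and 2 lower input (3.33%). Without a minimum (153 members), 42 and 52 were enriched (21.6% and 24.5%), 49 and 44 depleted (36.7% and 37.5%), 32 had higher and 18 lower enrichment (22.7% and 21.4%), 15 higher and 28 lower input (15.3% and 19.9%), and the median enrichment in shA5 was 0.03. With a 2-fold threshold, 15 and 14 were enriched (10.1% and 12%), 7 and 5 depleted (16.9% and 18.4%), 1 had higher enrichment (0.846%) and 2 lower input (1.15%). With family members under other symbols, 14 were depleted in shA5 (31.7%) and 1 had lower enrichment (5.09%). Thinned to the smallest total, 9 had higher and 2 lower enrichment (7.67% and 7.82%) and 1 had higher input (4.19%). The next 2 alternatives were chosen after seeing the data. With 50 counts in the shCTL input (66 members), 14 were depleted in shA5 (37.6%). With the 41 members that share no exon with another gene, 15 and 16 were enriched (22.5% and 24.3%), 2 had higher enrichment, KLHL23 and FBXL17 (5.38%), and 2 lower input (6.43%). Fewer or more genes tested, or a stricter threshold, enter these counts by construction, apart from thinning and the minimum in the shCTL input, where the cause was not tested. Of 750 values of the 36 named members under other scalings, constants, transcripts, thinning and GC, 729 stayed within their counting interval, 21 lay outside it and 0 of those whose interval left out 0 changed sign. Depth limits the changes of enrichment, which rest on 4 libraries, and the shA5 input is the shallowest.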
